A study of Rattus norvegicus with 241 samples.

Results

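Genes of milk fat synthesis and secretion, 10 in all, are described here across sorted and single mammary cells of ACI and Sprague Dawley (SD) rats. They were taken by symbol, ignoring case, as Btn1a1, Xdh, Plin2, Fasn, Acaca, Acacb, Olah, Thrsp, Scd and Lpl, which makes 10 of 21707 symbols in the tables. All 10 were present in every bulk and single-cell table except that of CD45+ cells of NMU-induced tumors, which held 9, without BTN1A1. Gene symbols are written in capitals below.

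In the lactating gland the alveolar epithelium makes fatty acids, joins them to glycerol and releases the resulting droplets wrapped in apical membrane as milk fat globules. Carboxylation of acetyl-CoA by acetyl-CoA carboxylase (ACACA, and the mitochondrial form ACACB, which restrains fatty acid oxidation) precedes chain building by fatty acid synthase (FASN), and the thioesterase OLAH ends the chains early so that milk carries medium-chain fatty acids. THRSP promotes lipogenesis, SCD introduces a double bond into saturated chains, and LPL releases fatty acids from circulating lipoproteins for uptake. PLIN2 coats cytoplasmic droplets, and the membrane protein butyrophilin (BTN1A1) together with xanthine dehydrogenase (XDH) acts in the enclosure of the droplet at the apical membrane. The labels name no lactating rat.

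Female rats received the TGFβ receptor inhibitor LY2157299 (galunisertib, TGFBRi) by mouth at 75 mg/kg, in 2 doses a day, or vehicle, and RNA of mammary cells was sequenced in 202 bulk samples and 39 single-cell libraries. Young ACI rats, virgin and 35 days old at the first dose, had 10 days of dosing and were taken at day 0, 7 or 14 after it, with 3 rats per group. Young virgin SD rats began at 24 days old, had 10 days of dosing and were taken at day 0, with 4 rats per group. Adult ACI rats of 18 to 24 weeks, virgin or parous, had 10 days of dosing and were taken at day 0, with 4 rats per group in luminal and basal cells. Sorted cells were CD45-CD31- and either CD24+CD29high (basal) or CD24+CD29low (luminal), and CD45+ leukocytes were collected beside them. In the NMU model, SD rats began a 10-day dosing at 21 days old, also received the carcinogen N-nitroso-N-methylurea at 50 mg/kg and were taken at day 87, as 3 tumor-bearing vehicle, 3 tumor-bearing TGFBRi and 3 tumor-free TGFBRi rats, with EPCAM+ and CD45+ cells of 3 tumors per treatment. In the estradiol (E2) model, ACI rats began a 21-day dosing at 38 days old and then carried a silastic implant filled with 37 mg of E2 or an empty one (labelled without E2). By the paper, cells of this model were taken at the end of the tumor experiment. Luminal cells of that model came from 4 vehicle and 3 TGFBRi rats without E2, 4 tumor-bearing vehicle rats, 4 tumor-free TGFBRi rats and 2 tumor-bearing TGFBRi rats with E2. No tumor-free vehicle rat with E2 was analysed here, so E2 and tumor status cannot be told apart under vehicle. Single cells were taken at day 0 from basal and luminal sorts of young ACI rats (3 vehicle, 3 TGFBRi), from the same sorts of young SD rats (3 and 6) and from whole glands of young SD rats (3 and 6).

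Bulk depth ran from 4194912 to 52314784 reads on genes per sample, and single-cell libraries held 4517218 to 92699378 UMIs. Bulk values are reads divided by a size factor per sample and are called normalized reads. They carry no transcript length, so bulk levels are compared for a gene between samples and never between genes. Sorted single cells numbered 16762 (ACI) and 39766 (SD), and whole glands gave 103524 cells with median UMIs per cell of 2820 to 3885 across libraries. Any pair of libraries of an experiment shared at most 2.51% of cell barcodes. In bulk cells, fewer cells of a type and less RNA per cell cannot be told apart. One library stood apart among basal cells, that of adult virgin vehicle rat 1, with summed luminal progenitor markers of 3947 CPM (reads scaled to the same total per sample) against 177 to 499 in the other 3 rats of its group and basal markers of 8521 against 18773 to 19208. Calls that rest on it, and the comparison of parous with virgin vehicle rats, are given with and without it.

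The promoters of BTN1A1 and of the 2 members whose levels in luminal bulk cells most resembled it, XDH and ACACB, are shown, from 250 bases before to 50 bases after the start of transcription. They were read from RefSeq on GRCr8, a later assembly than the rn6 build of the files, at chr17:42081277-42081576 (+ strand) for Btn1a1, chr6:27282069-27282368 (+ strand) for Xdh and chr12:48138165-48138464 (- strand) for Acacb. Capitals mark the CCAAT box on either strand, so that a box on the opposite strand reads ATTGG.

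Btn1a1: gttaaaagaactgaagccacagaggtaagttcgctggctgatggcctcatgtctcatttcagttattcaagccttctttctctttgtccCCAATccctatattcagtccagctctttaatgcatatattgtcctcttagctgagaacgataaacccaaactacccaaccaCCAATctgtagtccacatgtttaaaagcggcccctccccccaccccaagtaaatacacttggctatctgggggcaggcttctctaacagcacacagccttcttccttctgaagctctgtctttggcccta

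Xdh: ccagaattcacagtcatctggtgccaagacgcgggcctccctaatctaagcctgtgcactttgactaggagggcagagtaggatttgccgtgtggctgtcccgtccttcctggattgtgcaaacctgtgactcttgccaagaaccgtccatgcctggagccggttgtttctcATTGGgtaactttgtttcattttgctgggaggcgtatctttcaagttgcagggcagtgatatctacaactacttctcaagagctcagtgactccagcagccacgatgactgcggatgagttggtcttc

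Acacb: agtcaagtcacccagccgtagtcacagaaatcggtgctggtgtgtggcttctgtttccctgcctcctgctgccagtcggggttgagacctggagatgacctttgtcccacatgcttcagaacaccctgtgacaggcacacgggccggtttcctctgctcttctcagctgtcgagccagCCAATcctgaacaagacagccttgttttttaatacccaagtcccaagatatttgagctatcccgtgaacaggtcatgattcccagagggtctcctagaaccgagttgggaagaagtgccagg

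A CCAAT box was present in 2 places in the Btn1a1 promoter, with first bases 161 and 80 bases before the start, in 1 place in Xdh (78 before) and in 1 place in Acacb (72 before). These letters occur in 37.5% of all 33469 rat promoter windows of this length, so the match is common. The windows of these 3 genes held no TTCNNNGAA (the core of a STAT site, in 8.87% of windows), no TCACNCCAC (a sterol element, 1.12%), no CACGTG (an E-box, 6.42%) and no TATAAA (14.2%), searched on both strands. A match or its absence describes these letters in this window only.

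The first comparison asked in which epithelial lineage the genes were transcribed, using vehicle-treated young rats at day 0. Most members were far higher in luminal than in basal cells of both strains. In ACI rats 8 of 10 members were higher and 1, SCD, was lower in luminal cells, and in SD rats 7 of 10 were higher and none lower (limma, adjusted p of 0.05 or less). Of all genes tested, 20.5% were called in ACI and 40.9% in SD rats, and 45.5% and 46.6% did not overlap between lineages. The median log2 difference of the members was 3.39 in ACI and 2.12 in SD against −0.21 and −0.02 for all genes.

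Among secretion genes, BTN1A1 stood at 4338, 3481 and 3580 normalized reads in the 3 ACI luminal samples and at 194, 97 and 128 in the basal samples. The lineages did not overlap, and the log2 difference was 4.81 ± 0.725 (SE, limma adjusted p = 9.25e-06). In SD rats BTN1A1 measured 1307 ± 546 (mean ± s.d., n = 4) in luminal and 97.9 ± 21.0 in basal cells, a log2 difference of 3.64 (limma adjusted p = 3.03e-06). XDH, its partner at the apical membrane, was higher in luminal cells by 3.51 in ACI (5821 ± 694 against 524 ± 170 normalized reads, n = 3, limma adjusted p = 0.00354) and by 1.88 in SD rats (limma adjusted p = 0.00204). The droplet coat PLIN2 was also clearly transcribed in basal cells, at 5918 ± 1642 normalized reads in ACI (n = 3) and 15419 in SD rats, and was higher in luminal cells by 2.97 and 2.22 on the log2 scale (limma adjusted p = 2.04e-08 and 5.08e-05).

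Among synthesis genes, OLAH showed the widest separation in ACI rats. It measured 45644, 52313 and 58684 normalized reads in luminal and 617, 571 and 969 in basal samples, a log2 difference of 6.21 ± 0.559 (SE, limma adjusted p = 1.56e-09). The same gene differed by 4.54 in SD rats (limma adjusted p = 3.48e-09), and the lipogenesis gene THRSP by 5.14 in ACI and 5.39 in SD rats (limma adjusted p = 1.19e-05 and 4.70e-11). The carboxylases parted company. ACACB rose from basal to luminal by 4.78 in ACI and 3.31 in SD rats (limma adjusted p = 0.000689 and 0.000439), whereas ACACA stood at 260 ± 139 in luminal and 204 ± 73.1 in basal ACI cells (n = 3, log2 difference 0.30, limma adjusted p = 0.877). In SD rats ACACA was 34 ± 17.1 in luminal and 76.7 ± 6.68 in basal cells (n = 4), without overlap but also without a call (−1.30, limma adjusted p = 0.174), and it was called with the rat as a block, since both lineages came from the same animals (limma adjusted p = 0.0430). FASN was higher in luminal cells by 3.27 ± 1.11 in ACI (limma adjusted p = 0.0339) and by 2.03 in SD rats (limma adjusted p = 0.000447). The ACI call of FASN was lost whenever any 1 of the 6 samples was left out, with adjusted p up to 0.110.

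SCD ran the other way in ACI rats. It was 6.27, 0 and 0 normalized reads in luminal and 202, 113 and 113 in basal samples, a log2 difference of −6.16 on the scale with 1 added (limma adjusted p = 5.10e-06). In SD rats SCD was 26 in luminal and 66.4 in basal cells (−1.45, limma adjusted p = 0.274), called with the rat as a block (limma adjusted p = 0.0405). SCD has close paralogs in the rat, such as SCD2, and the counting tool by default leaves out reads that align to several places, so reads shared by such copies may be missing and its values are uncertain. LPL differed between strains in its pattern, being 7054 ± 601 in luminal and 901 ± 645 in basal ACI cells (n = 3, 3.19, limma adjusted p = 4.66e-05) but 1519 and 1528 in SD cells (−0.08, limma adjusted p = 0.936). The strains were scaled in separate tables and that difference was not tested.

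**Figure D1:**
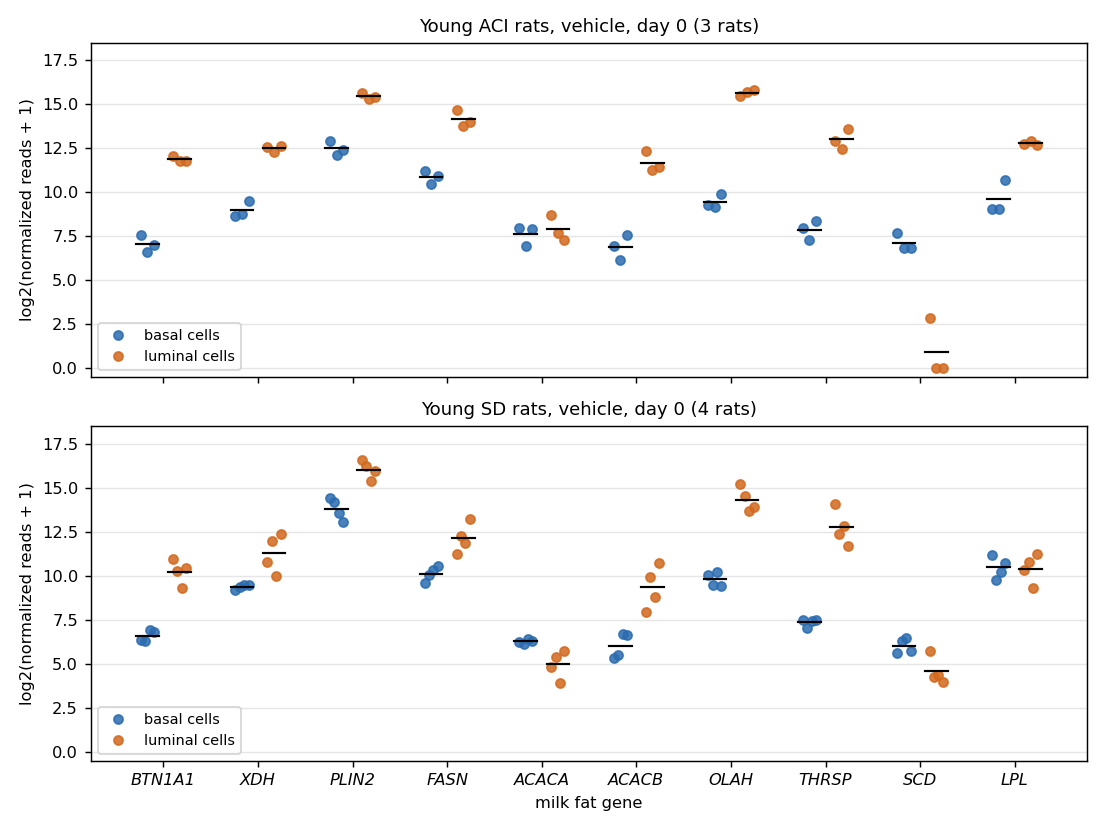
Level of each member in basal (blue) and luminal (orange) cells of vehicle-treated rats at day 0, as log2 of normalized reads plus 1, with a point for each rat (3 ACI, 4 SD) and a bar at the mean. BTN1A1, XDH, PLIN2, FASN, ACACB, OLAH and THRSP lie higher in luminal cells of both strains without overlap. Of all genes tested, 45.5% in ACI and 46.6% in SD rats did not overlap between lineages. SCD lies lower in ACI luminal cells, and LPL separates the lineages in ACI but not in SD rats.

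Other genes of the pathway were split between lineages. Of 60 pathway genes tested, 13 were higher and 12 lower in ACI luminal cells, and 19 were higher and 14 lower in SD luminal cells. The droplet and globule genes leaned to the luminal side, with 5 of 9 higher and none lower in ACI and 6 higher and 1 lower in SD rats, among them MUC1 (6.23 and 4.90), MFGE8 (1.98 and 3.41) and CIDEA (3.01 and 4.29). Of 11 uptake and transport genes, none was higher and 4 were lower in ACI luminal cells, and 5 were higher and 4 lower in SD luminal cells, beside 20.5% and 40.9% of all genes called. The lipogenic regulator SREBF1 was higher in luminal cells by 3.04 and 1.81. Milk protein genes were higher in luminal cells in 8 of 9 tested in ACI and in 9 of 9 in SD rats.

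Sorted single cells repeated the comparison in other rats, as sums of UMIs per rat and sort. In both strains 8 of 10 members were higher in the luminal sort and none was lower (edgeR, adjusted p of 0.1 or less), where 65.5% (ACI) and 41.6% (SD) of genes were called. OLAH averaged 11.6 UMIs per 10000 in the luminal and 0.0242 in the basal sort of ACI rats (log2 difference 8.98) and 14.0 against 0.0155 in SD rats (9.96). BTN1A1 averaged 1.74 against 0.0299 (5.92) in ACI and 1.52 against 0.00709 (7.89) in SD rats. LPL was higher in the luminal sort of both strains, by 8.11 in ACI and 3.49 in SD rats, and the SD value stands beside no bulk difference. The SD basal sort held 69, 260 and 21 LPL UMIs in the 3 vehicle rats, and in rat 2 a group of 16 fibroblast-like cells held 191 of the 260 and 21 mural-like cells held 65. ACACA (0.06 and 0.02) and SCD (−0.42 and 1.57) were not called in either strain, so the lower bulk level of SCD in ACI luminal cells had no counterpart call here. With the rat as a block SCD was called higher in the SD luminal sort (1.41, edgeR adjusted p = 0.0118), opposite to the bulk difference in SD rats.

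To place the genes among all cells of the gland, whole-gland cells were clustered without the members, the pathway genes and the milk protein genes, and clusters were named from fixed markers. Luminal progenitor-like (LP-like) cells, 11736 of 103524, held the highest mean of 8 of 10 members over the 9 rats, and of 6 in the 3 vehicle rats alone. The other classes were mature luminal-like (ML-like), basal-like, stromal, vascular and immune. No cluster at the main resolution had the markers of adipocytes, the other cells that store fat in the gland. These levels are a description over classes and were not tested.

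BTN1A1 averaged 2.06 ± 0.872 UMIs per 10000 in LP-like cells (s.d. over 9 rats), 50.5 times the next class, macrophage-like cells at 0.0409. THRSP at 5.43 (ratio 49.1) and OLAH at 13.7 (ratio 38.8) were as unevenly spread. PLIN2, in contrast, was 28.2 ± 7.79 in LP-like and 9.57 in macrophage-like cells, and the lowest LP-like rat (16.5) lay below the highest macrophage-like rat (18.1). XDH also overlapped between these classes, at means of 3.34 and 1.42. FASN averaged 2.59 in LP-like and 1.36 in ML-like cells, ACACB 0.674 in LP-like and 0.0924 in lymphatic-like cells, and ACACA 0.104 in LP-like and 0.0786 in Schwann-like cells. Rats overlapped between the paired classes for each of FASN, ACACB and ACACA. These means hold 6 TGFBRi rats. In the 3 vehicle rats FASN averaged 0.765 in LP-like, 0.750 in ML-like and 0.977 in Schwann-like cells, XDH 0.9998 in LP-like and 1.06 in macrophage-like cells, and ACACA 0.0462 in LP-like and 0.0418 in basal-like cells. BTN1A1 kept its distance there, at 1.05 in LP-like and 0.0190 in macrophage-like cells.

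A pair of members peaked outside the epithelium. LPL was highest in fibroblast-like cells at 3.89 ± 0.425 UMIs per 10000, with mural-like cells next at 3.21, and the rats of these neighbours overlapped. SCD was highest in B cell-like cells at 0.407 ± 0.0850, with Schwann-like cells next at 0.0546, and the rats of these did not overlap. The share of all genes without overlap between these classes was not counted.

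Shares of cells with a UMI gave the same order. BTN1A1 was found in 44.6% of LP-like cells (median 3933 UMIs per cell) and 0.255% of T cell-like cells (median 2866), which should lack it. After thinning every cell to 1000 UMIs, which left out 2772 LP-like and 1374 T cell-like cells, the shares were 16.0% and 0.0894%. OLAH was found in 81% of LP-like cells (61.7% after thinning). Basal-like cells had a BTN1A1 UMI in 0.836% of cells at a median of 6766 UMIs, and in 0.120% after thinning, beside 0.106% of B cell-like cells, and the part of free RNA was not tested. Thinned basal shares of OLAH (0.674%) and THRSP (0.543%) stood beside T cell-like shares of 0.777% and 0.340%. SCD UMIs were in 8.91% of B cell-like, 0.143% of T cell-like and 0.409% of LP-like cells, and after thinning in 4.02%, 0.0268% and 0.0781%.

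**Figure D2:**
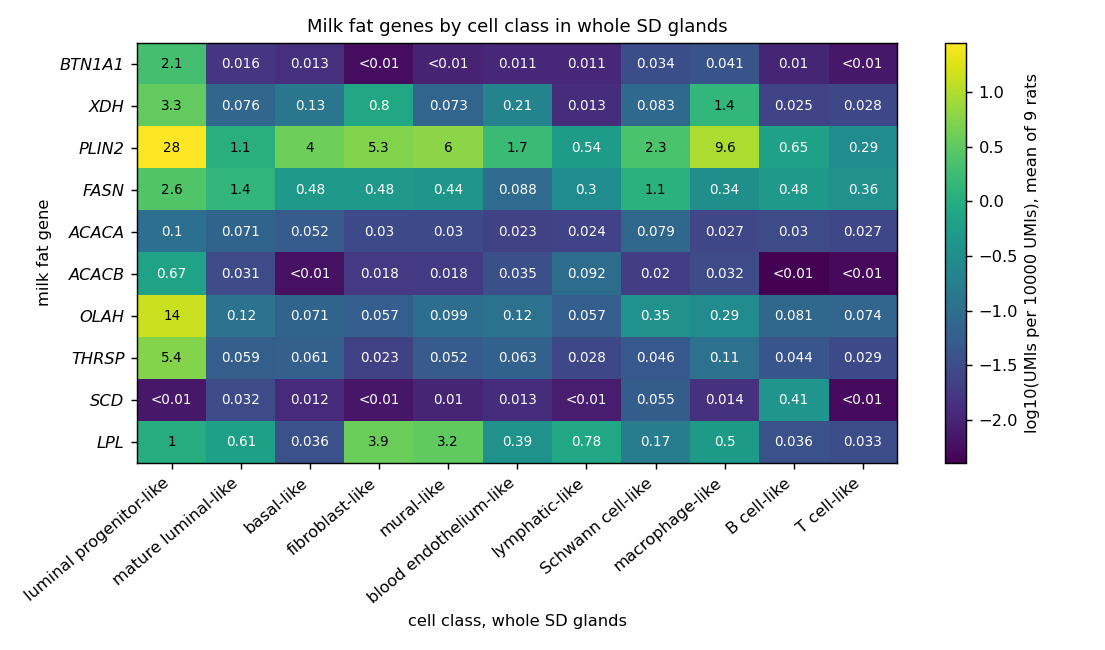
Mean UMIs per 10000 of each member in 11 classes of whole-gland cells, averaged over 9 rats, with the colour on a log10 scale and the value written in each tile. LP-like cells carry the highest value for 8 members, fibroblast-like cells for LPL and B cell-like cells for SCD, while in the 3 vehicle rats alone Schwann-like cells lead for FASN and macrophage-like cells for XDH.

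The next comparison was that of TGFBRi with vehicle in bulk cells, made in 32 settings of strain, age, model and cell fraction. Members seldom passed the test, as did genes in general. Of 319 member tests 3 were higher and 2 lower with TGFBRi (limma, adjusted p of 0.05 or less), where 0.588% of all gene tests were called. Each was a different combination of gene and setting, and no member was called in more than 1 setting except ACACB, which was higher in 1 and lower in the other. edgeR on the recovered reads called 4 (0.448% of all gene tests) and DESeq2 called 15 (2.06%).

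In luminal cells of young ACI rats at day 0, where 1.01% of genes were called, SCD was 6.27, 0 and 0 normalized reads with vehicle and 22.7, 46.8 and 101.003 with TGFBRi. The groups did not overlap, as for 5 of 10 members and 32.1% of all genes, and the log2 difference of SCD was 4.65 ± 0.978 (SE, limma adjusted p = 0.0388). It was no longer called by edgeR, with 5 added in place of 1, with a mean of at least 10 required, or without vehicle rat 2 or 3 or TGFBRi rat 1 or 2 (4.18 to 5.17, adjusted p of 0.0861 to 0.184). ADIPOQ, a marker of adipocytes, was 3.92, 0 and 19.9 with vehicle and 45.5, 70.2 and 25.5 with TGFBRi in these libraries, and summed adipocyte markers ran from 55.4 to 96.5 and from 48.3 to 105.7 CPM. Their part in the result was not tested. In the same cells OLAH averaged 52214 with vehicle and 14891 with TGFBRi (−1.85, limma adjusted p = 0.0734, DESeq2 adjusted p = 0.0150).

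At day 14 in ACI luminal cells all 10 members lay lower with TGFBRi and none was called, as was no gene of the table (0%). BTN1A1 stood at 5967, 4889 and 4517 normalized reads with vehicle and at 2360, 1822 and 523 with TGFBRi (−1.96, limma adjusted p = 0.359). XDH averaged 8661 and 2017 (−2.40, limma adjusted p = 0.308), and FASN 21404 and 4481 (−2.84, limma adjusted p = 0.373). The groups did not overlap for 5 of 10 members, as for 13.8% of all genes, and 5 members had an unadjusted p under 0.05, as had 8.35% of all genes. LP marker sums ran from 25980 to 44813 CPM with vehicle and were 12255, 12380 and 37035 with TGFBRi, and their part in the result was not tested. At day 7 none of 10 was called in luminal cells (0% of genes), and in basal cells none was called at day 0 (3.34% of genes), day 7 (0.00639%) or day 14 (0%). In luminal and basal cells of young SD rats none was called either (0% of genes in both).

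In the NMU model, calls came from tumor-bearing rats. ACACB in luminal cells was 208, 66.9 and 247 normalized reads with vehicle and 533, 1228 and 880 with TGFBRi, a log2 difference of 2.45 ± 0.503 (SE, limma adjusted p = 0.0462) where 0.212% of genes were called. Other members of these cells pointed the same way without a call, among them BTN1A1, at 36, 214 and 895 against 1528, 1115 and 1746 (2.90, limma adjusted p = 0.176), and FASN (1.86, limma adjusted p = 0.0642). Summed adipocyte markers of these libraries ran from 951 to 3421 CPM with vehicle and from 205 to 902 with TGFBRi, and their part in the result was not tested. The ACACB call was lost without vehicle rat 1 or 2 or any 1 TGFBRi rat (1.87 to 2.77, adjusted p of 0.0586 to 0.351). Without vehicle rat 3, whose BTN1A1 and XDH were the highest of its group, 7 members were called higher where 10.8% of genes were called, BTN1A1 by 4.01 (limma adjusted p = 0.000425) and XDH by 2.27 (limma adjusted p = 0.00119) among them, and 4 were called in tumor-free TGFBRi rats (14.3% of genes). All NMU vehicle rats bore tumors, so against tumor-free TGFBRi rats treatment and tumor status cannot be told apart.

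In basal cells of tumor-bearing NMU rats THRSP was 75.5, 78.3 and 144 normalized reads with vehicle and 430, 1904 and 385 with TGFBRi (2.83 ± 0.557, limma adjusted p = 0.0361, 1.31% of genes called). It was lost without any 1 of the vehicle rats or without TGFBRi rat 2 (2.09 to 3.13, adjusted p of 0.0573 to 0.168). The milk protein gene CSN2 ran from 4.90 to 90.3 normalized reads with vehicle and from 14.3 to 3202 with TGFBRi in these libraries. The part of luminal RNA in the THRSP call was not tested. Against tumor-free TGFBRi rats the same vehicle rats gave no member call in basal (0% of genes) or luminal cells (0.948%). EPCAM+ and CD45+ cells of NMU tumors gave none of 10 and none of 9 (0% of genes over both), with OLAH in EPCAM+ cells at means of 5111 and 2465 (−1.35, limma adjusted p = 0.9998).

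In adult rats the call was ACACB in basal cells of virgin rats, with 8.73% of genes called. It was 1059, 74.2, 100.9 and 160 normalized reads with vehicle and 68.5, 32.2, 0 and 0 with TGFBRi (−4.78 ± 1.22, limma adjusted p = 0.0237). The highest value belonged to vehicle rat 1, which carried the LP markers described above. Its luminal and adipocyte marker sums, also above those of its group, are given with the flagged results below. Without that rat the gene was no longer called (−3.95, limma adjusted p = 0.0663). It was also lost without vehicle rat 4 or TGFBRi rat 3 or 4 (−4.86 to −3.85, adjusted p of 0.0518 to 0.0616). Luminal cells gave no call in virgin (0% of genes) or parous rats (0.0281%), and parous basal cells gave none (0.00744%). FASN in parous luminal cells averaged 10153 with vehicle and 33512 with TGFBRi, without overlap, as for 6.73% of all genes (1.91, limma adjusted p = 0.124, DESeq2 adjusted p = 0.0143).

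CD45+ cells gave 1 member call over the 11 settings outside tumors that compared TGFBRi with vehicle. In young ACI rats at day 0 OLAH was 1611, 1660 and 1468 normalized reads with vehicle and 101.5, 683 and 276 with TGFBRi (−2.55 ± 0.639, limma adjusted p = 0.0432), where 2.85% of genes were called, and it was lost under edgeR and without vehicle rat 1 or 2 or TGFBRi rat 1 or 3 (−2.58 to −1.86, adjusted p of 0.0532 to 0.189). Epithelial genes were present in these libraries, with BTN1A1 at 59.2, 127 and 113 against 0, 103.7 and 14.3 (limma adjusted p = 0.150). Summed basal markers ran from 111 to 342 CPM with vehicle and from 4.13 to 6.57 with TGFBRi, and LP markers from 208 to 754 and from 80.2 to 412. The part of epithelial RNA in the OLAH call was not tested. Over all 14 comparisons of CD45+ cells outside tumors, those of parity and E2 included, 0.631% of gene tests were called. E2 luminal cells gave no TGFBRi call without E2 (0.0147% of genes). With E2, tumor-bearing vehicle rats were set against tumor-free (0.0147%) and tumor-bearing TGFBRi rats (0.00736%), again without a member call. In the former, treatment and tumor status cannot be told apart.

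**Figure D3:**
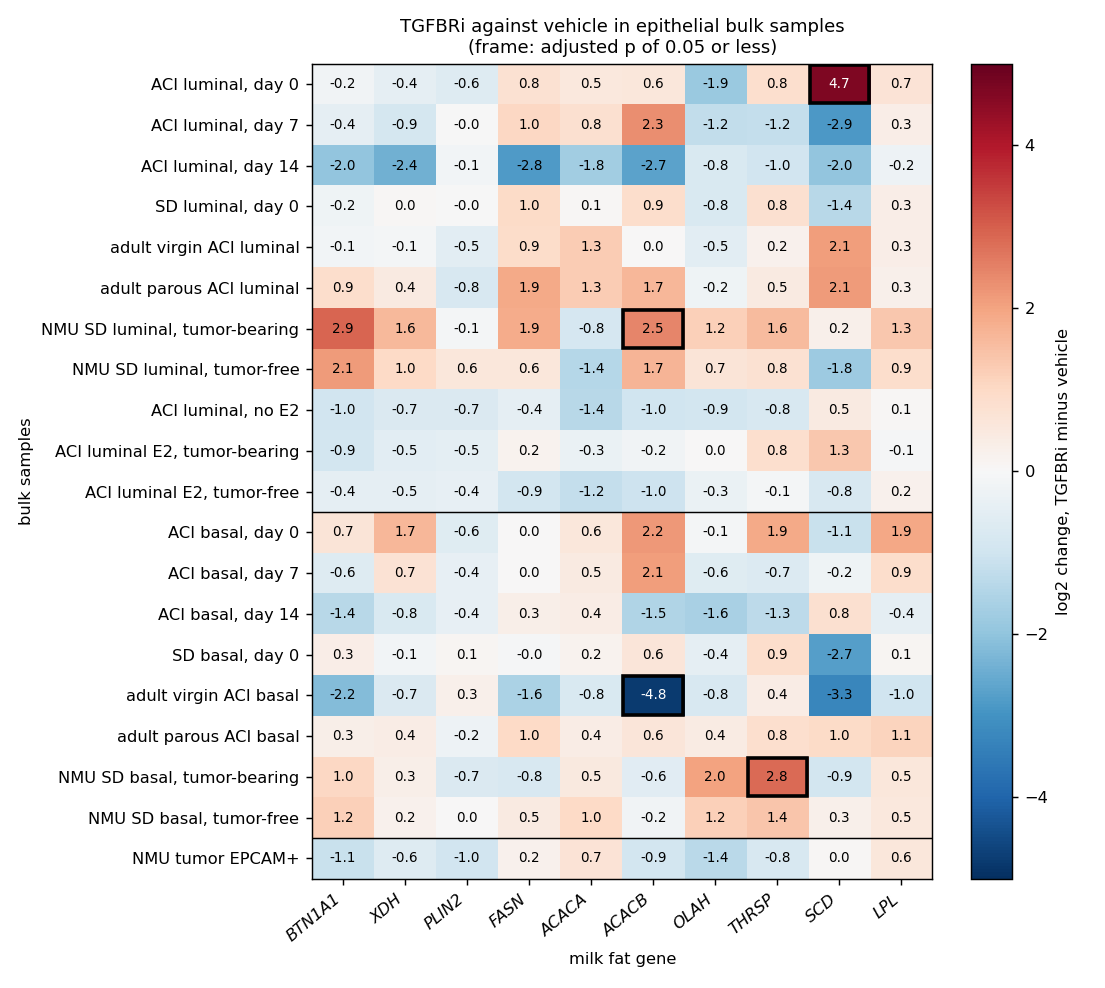
Log2 difference between TGFBRi and vehicle (colour) for each member in 20 comparisons of epithelial bulk cells, with frames around those with limma adjusted p of 0.05 or less. Frames surround 4 tiles, SCD in ACI luminal cells at day 0, ACACB and THRSP in NMU tumor-bearing rats and ACACB in adult virgin basal cells. Vehicle rats of the NMU model and those with E2 bore tumors, so against tumor-free TGFBRi rats treatment and tumor status cannot be told apart.

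Whether the effect of TGFBRi differed between days, between lineages, between virgin and parous rats or with E2 was tested directly. None of 90 member tests was called by limma (0.124% of all gene tests) or edgeR (0.0967%), and DESeq2 called 6 (0.884%). An unadjusted p under 0.05 was reached by 0 to 5 of 10 members and by 1.09% to 16.9% of all genes per contrast.

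Parity was compared in vehicle-treated adult rats. None of 30 member tests was called by limma, edgeR or DESeq2, and 0% of genes were called in luminal, basal or CD45+ cells. The CD45+ cells came from 2 parous and 4 virgin rats, fewer than in the other fractions. An unadjusted p under 0.05 was reached by 4 members in basal cells (3.04% of all genes) and by none in luminal or CD45+ cells. In luminal cells OLAH averaged 84264 ± 3877 in virgin and 118972 ± 16123 normalized reads in parous rats (n = 4), without overlap, as for 5.36% of all genes (0.49, limma adjusted p = 0.828). BTN1A1 averaged 5168 and 4310 (−0.45). In basal cells all 10 members lay lower in parous rats, with BTN1A1 at 936 in virgin and 216 in parous rats (−1.78), where virgin rat 1 alone stood at 2706 and the others at 228 to 435. Without that rat no member had an unadjusted p under 0.05 (2.21% of all genes had), BTN1A1 differed by −1.03 and XDH lay higher in parous rats, by 0.55.

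E2 went with higher levels of some members in luminal cells, compared between rats given an E2 implant and an empty implant under the same treatment. In vehicle rats SCD was the member called, in a table where 1.48% of genes were called. It measured 98.1, 26.4, 436 and 139 normalized reads without and 2863, 1369, 2325 and 1559 with E2, all of the latter in tumor-bearing rats. The log2 difference was 4.10 ± 0.796 (SE, limma adjusted p = 0.0124), and it was called in all 7 other settings tried and in 8 of 8 fits without 1 rat (adjusted p up to 0.0440). The adipocyte marker ADIPOQ ran from 0 to 1.32 normalized reads without and from 0 to 606 with E2 in these vehicle rats. In TGFBRi rats it ran from 16.5 to 33.2 without E2 and from 0 to 2.20 in tumor-free rats with E2. The part of adipocyte RNA in the SCD call was not tested.

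In tumor-free TGFBRi rats, where 4.58% of genes were called, the pair of globule genes was called. BTN1A1 was 2597, 450 and 2581 normalized reads without and 6052, 6631, 4241 and 7601 with E2 (2.05 ± 0.562, limma adjusted p = 0.0457). XDH was 4397, 1319 and 6410 without and 14232, 21251, 11295 and 20346 with E2 (2.28 ± 0.539, limma adjusted p = 0.0245). Neither gene overlapped between the groups, where 18.0% of all genes did not overlap. Both calls were lost without TGFBRi rat 1, 5 or 7 with E2 or rat 2 without E2, and that of BTN1A1 also without rat 3 without E2, with differences of 1.21 to 2.47 for BTN1A1 and 1.61 to 2.35 for XDH (adjusted p of 0.0503 to 0.194 and 0.0508 to 0.103). SCD averaged 200 and 1561 in these rats (2.83, limma adjusted p = 0.0703) and PLIN2 differed by 0.16.

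In vehicle rats BTN1A1 averaged 3664 without and 8407 with E2 (1.53, limma adjusted p = 0.158), and XDH 7458 and 22481 (2.01, limma adjusted p = 0.0514). One vehicle rat without E2, rat 4, stood above its group, at 8825 for BTN1A1 and 18302 for XDH, with an LP marker sum of 34275 CPM against 7275 to 22562 in its group. Without that rat BTN1A1 (2.08, limma adjusted p = 0.0171), XDH (2.59, limma adjusted p = 0.00247), THRSP (2.25, limma adjusted p = 0.0179) and ACACA (2.51, limma adjusted p = 0.0483) were called beside SCD (4.20), where 3.92% of genes were called. LP marker sums with E2 ran from 30598 to 39314 in vehicle rats and from 22402 to 31260 in tumor-free TGFBRi rats, against 8390 to 10912 in TGFBRi rats without E2, and their part in the results was not tested. The effect of E2 was not shown to differ between treatments (0 of 10 members and 0% of genes, limma). The vehicle rats with E2 bore tumors and the TGFBRi rats compared were tumor-free, so treatment and tumor status cannot be told apart in that contrast. CD45+ cells gave no member call with E2, where 0.282% of genes were called in vehicle and 5.58% in TGFBRi rats.

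Other pathway genes of the luminal cells also rose with E2, 5 of 59 tested in vehicle rats with none lower and 11 in tumor-free TGFBRi rats with 1 lower, where 1.48% and 4.58% of all genes were called. The fatty acid binding protein FABP3 rose by 5.55 and 7.10, the milk transporter ABCG2 by 3.86 and 4.63 and the acyl-CoA synthetase ACSL1 by 3.10 and 3.75. The milk protein genes rose in 2 of 9 and 7 of 9.

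**Figure D4:**
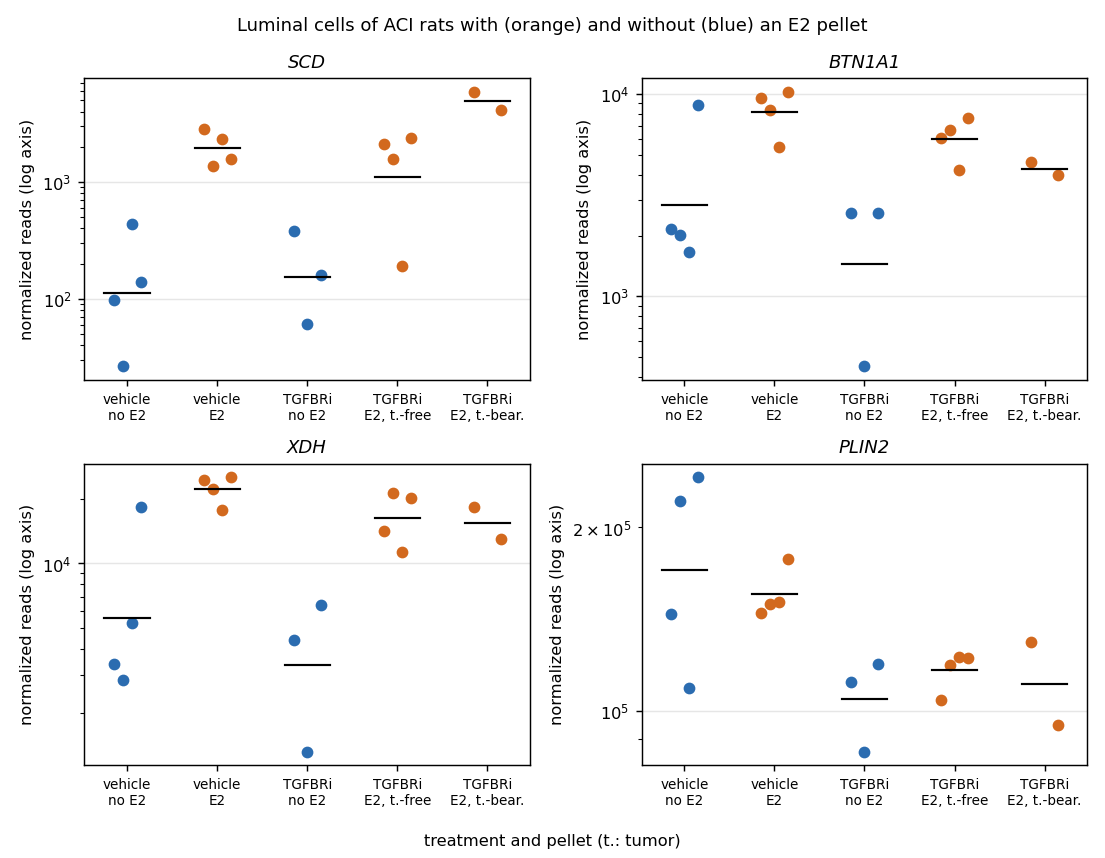
Normalized reads of SCD, BTN1A1, XDH and PLIN2 in luminal cells of each ACI rat of the E2 model on a log axis, with bars at the geometric mean of the value plus 1, minus 1. SCD with E2 (1369 to 2863 in vehicle rats) lies above every vehicle rat without E2, while PLIN2 overlaps between rats with and without E2 under either treatment. Between vehicle rats with and without E2, 7.70% of all genes did not overlap.

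Single cells gave more calls of TGFBRi against vehicle than bulk cells, at the looser threshold of adjusted p 0.1. Over 14 comparisons 50 of 139 member tests were called (edgeR), 36 higher and 14 lower, where 27.3% of all gene tests were called. The members did not move as 1 block. Calls of FASN, OLAH and THRSP in luminal classes were higher with TGFBRi, BTN1A1 was higher or lower depending on the experiment, and PLIN2 was lower wherever it was called.

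Log2 differences of single cells are relative to edgeR's TMM factors, which adjust for RNA composition, so they depart from the ratio of the printed UMIs per 10000, which are relative to all UMIs of the rat and class. Scaling by all UMIs alone, added after the values were seen, moved the median of all genes by −0.39 to 0.25 over the 14 comparisons, downward in sorted cells and upward in whole glands. It called 58 members, 36 higher and 22 lower, where 30.9% of all gene tests were called. Of the 50 calls 42 held and 8 were lost, 16 were added, and 11 differences changed sign, none of them called under TMM. Over all genes in sorted cells, 10.1% to 22.2% of calls were then higher with TGFBRi, against 47.7% to 54.3% under TMM, and in whole glands 49.7% to 78.3% against 23.1% to 54.2%. Calls that scaling by all UMIs changed are named with each class below.

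LP-like cells of whole SD glands had the most members higher, 7 of 10, and none lower, where 26.7% of genes were called. BTN1A1 was 1.03, 1.08 and 1.04 UMIs per 10000 in the vehicle rats and 2.25, 2.95, 1.73, 3.03, 3.07 and 2.41 in the TGFBRi rats (log2 difference 1.196 ± 0.212, edgeR adjusted p = 0.00516). XDH was 0.875, 1.48 and 0.643 against 2.95, 4.27, 2.16, 6.32, 7.52 and 3.87 (2.07 ± 0.424, edgeR adjusted p = 0.00939). FASN was 0.612, 0.741 and 0.943 against 1.82, 2.77, 2.71, 4.51, 3.56 and 5.64 (2.12 ± 0.353, edgeR adjusted p = 0.0040). In each of these genes every TGFBRi rat lay above every vehicle rat. The share of all genes without overlap was not counted for single cells.

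The other synthesis genes followed, with ACACA higher by 1.51, ACACB by 1.502, OLAH by 0.87 and THRSP by 1.46 (edgeR adjusted p = 0.0296, 0.0340, 0.0349 and 0.0720). PLIN2 averaged 34.1 with vehicle and 25.2 with TGFBRi (−0.54, edgeR adjusted p = 0.166), LPL 0.614 and 1.21 (0.87, edgeR adjusted p = 0.101), and SCD differed by 0.08. Scaling by all UMIs added LPL (0.98, edgeR adjusted p = 0.0875). The calls of BTN1A1, XDH, FASN and ACACB held in 9 of 9 fits without 1 rat, those of ACACA and OLAH in 8 of 9 and that of THRSP in 4 of 9. Clusters made up LP-like cells unequally, cluster 3 holding 67.3% of vehicle and 50.2% of TGFBRi cells and cluster 10 holding 22.9% and 38.9%. THRSP, OLAH and ELF5 were among the leading genes of cluster 10, whose median was 844.5 UMIs per cell. Within cluster 3, BTN1A1 ran from 1.06 to 1.10 in vehicle and from 1.89 to 3.60 in TGFBRi rats, and FASN from 0.608 to 0.953 and from 1.79 to 5.71. Within cluster 10, BTN1A1 ran from 0.853 to 0.919 and from 1.10 to 2.497.

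LP-like cells of the luminal sort of SD rats, at the same age and dose, moved differently for some members, where 34.6% of genes were called. BTN1A1 was 1.89, 2.31 and 2.34 UMIs per 10000 with vehicle and 1.36, 0.680, 0.481, 0.832, 0.873 and 1.58 with TGFBRi, lower by 0.88 on the log2 scale (edgeR adjusted p = 0.0608), a call that held in 4 of 9 fits without 1 rat. FASN was higher by 0.79, OLAH by 0.94 and THRSP by 2.01 (edgeR adjusted p = 0.0227, 0.0506 and 0.0253). THRSP ran from 1.99 to 2.70 with vehicle and from 3.08 to 16.9 with TGFBRi. SCD was called higher (2.71) at means of 0.00254 and 0.0121 UMIs per 10000. With scaling by all UMIs BTN1A1 lay lower by 1.17 (edgeR adjusted p = 0.0220) and ACACA by 0.97 (edgeR adjusted p = 0.0795), FASN (0.49) and THRSP (1.75) stayed called, and OLAH (0.62, edgeR adjusted p = 0.156) and SCD were lost. Cluster 1 held 82% of vehicle and 4.67% of TGFBRi LP-like cells, so different clusters made up the class in the treatment groups.

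The effect in whole glands was set against that in the luminal sort in 1 model, added after the values were seen, in which 28.3% of genes were called. The effect was larger in whole glands for BTN1A1 (difference of log2 effects 2.05, edgeR adjusted p = 0.00326), XDH (1.74, edgeR adjusted p = 0.0195), FASN (1.33, edgeR adjusted p = 0.0156), ACACA (2.14, edgeR adjusted p = 0.0158) and ACACB (1.93, edgeR adjusted p = 0.0687). For OLAH (−0.08) and THRSP (−0.54) no difference was called. Scaling by all UMIs moved the median of all genes from 0.07 to 0.47, left these 5 called at 1.72 to 2.57 and added LPL (1.12, edgeR adjusted p = 0.0633). The sort, the library chemistry (3′ kits for sorted cells, 5′ kits for whole glands) and the cell filters cannot be told apart in this contrast, because the experiments also used different rats. In the sorted data 0 cells held a Ptprc UMI or fewer than 2 keratin UMIs, whereas of 103524 whole-gland cells 34667 held a Ptprc UMI and 72387 fewer than 2 keratin UMIs.

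LP-like cells of sorted ACI rats, with 28% of genes called, had 3 of 9 tested members called higher. FASN averaged 2.86 with vehicle and 4.23 with TGFBRi (0.92), OLAH 28.7 and 35.6 (0.66) and THRSP 4.71 and 8.46 UMIs per 10000 (1.205, edgeR adjusted p = 0.00186, 0.00884 and 0.000513). BTN1A1 was 3.94, 4.02 and 4.30 with vehicle and 2.28, 2.59 and 2.99 with TGFBRi, without overlap and without a call (−0.28, edgeR adjusted p = 0.164). The share of all genes without overlap was not counted here either. ACACA (0.29), ACACB (0.32) and LPL (0.08) were not called either. Scaling by all UMIs changed these values, by a shift of −0.36 in the median of all genes. BTN1A1 (−0.64, edgeR adjusted p = 0.00155) and LPL (−0.28, edgeR adjusted p = 0.0533) were then called lower, ACACA and ACACB lay at −0.07 and −0.04, and FASN (0.56), OLAH (0.31) and THRSP (0.84) stayed called higher. Cluster 7 held 93.3% of vehicle and 17.5% of TGFBRi cells of the class, and cluster 8 held 6.69% and 82.5%. THRSP, FASN and OLAH were thus called higher in LP-like cells of all 3 experiments under TMM, and THRSP and FASN also with scaling by all UMIs, whereas OLAH in bulk luminal cells of other ACI rats at day 0 lay lower with TGFBRi (−1.85, given above).

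With vehicle, ML-like cells carried lower levels of BTN1A1, XDH, PLIN2, ACACB, OLAH and THRSP than LP-like cells in whole glands and in both luminal sorts, with no overlap between rats, while LPL in sorted ACI rats was 3.41 in ML-like and 2.98 in LP-like cells. These classes were not tested against each other, and the share of all genes without overlap was not counted. In ML-like cells of whole glands, with 28.5% of genes called, FASN rose from 0.750 to 1.66 UMIs per 10000 (1.08, edgeR adjusted p = 0.000226), ACACA by 1.60 and LPL by 1.25, and OLAH by 0.76 at means of 0.0789 and 0.139. In ML-like cells of sorted ACI rats (25.7% of genes called) FASN, OLAH and THRSP were higher by 0.50, 0.91 and 1.45, while LPL fell from 3.41 to 2.19 (−0.42, edgeR adjusted p = 0.0361) and PLIN2 from 0.305 to 0.202 (−0.38, edgeR adjusted p = 0.0839). OLAH averaged 0.178 and 0.281 and THRSP 0.0335 and 0.0805 in these cells, far below LP-like cells, and the part of free RNA was not tested. With scaling by all UMIs FASN was lost (0.28, edgeR adjusted p = 0.164) and ACACA was called lower (−0.50). Cluster 1 held 42.5% of vehicle and 77.1% of TGFBRi cells of that class. In those of sorted SD rats (5.93%) THRSP was called higher by 1.39, a call lost with scaling by all UMIs (1.22, edgeR adjusted p = 0.116), cluster 12 holding 10.1% of vehicle and 95% of TGFBRi cells. Of the TGFBRi rats only 9, 10 and 14 had the 10 ML-like cells required, rat 14 with 17 cells. They held 44, 41 and 0 THRSP UMIs, against 17, 11 and 15 in vehicle rats 1, 2 and 3. In the whole luminal sort FASN, OLAH and THRSP were called higher in ACI rats (25.3% of genes called), and in SD rats FASN (0.70) and THRSP (1.94) were higher and BTN1A1 lower (−1.02, 31.9%). In these sorts scaling by all UMIs took away the calls of FASN in both strains and OLAH in ACI rats, and LPL was called lower in both, BTN1A1 also in ACI rats (−0.65) and ACACA in SD rats (−1.12).

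PLIN2 fell in each of the other 5 classes of whole glands that were tested. In fibroblast-like cells it was 17.3, 14.2 and 3.79 UMIs per 10000 with vehicle and averaged 2.14 ± 0.449 with TGFBRi (n = 6), lower by 2.61 on the log2 scale (edgeR adjusted p = 0.000201, 29.9% of genes called). It was lower by 1.61 in basal-like cells (44.9%), by 2.10 in endothelium-like cells (32%), by 1.22 in ML-like cells and by 1.05 in macrophage-like cells (3.66%), the last call being lost in 6 of 9 fits without 1 rat and with scaling by all UMIs (−0.82, edgeR adjusted p = 0.116). Vehicle rats varied among themselves, the third fibroblast value lying at 3.79 against 14.2 and 17.3.

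In basal-like cells 4 members were called higher and 3 lower, in fibroblast-like cells 1 higher and 2 lower, and in endothelium-like cells 2 higher and 1 lower. FASN was lower in basal-like cells, at 0.747 with vehicle and 0.346 with TGFBRi (−1.09, edgeR adjusted p = 0.00128), and in fibroblast-like cells (−0.80). LPL was also lower in basal-like cells, at 0.0594 with vehicle and 0.0248 with TGFBRi (−1.15, edgeR adjusted p = 0.0188). XDH was higher in endothelium-like cells, at 0.119 and 0.259 (0.94, edgeR adjusted p = 0.00365). ACACB was called higher in basal-like (2.16), fibroblast-like (2.67) and endothelium-like cells (1.16), at means no higher than 0.0441 UMIs per 10000. The calls of BTN1A1 (1.65), OLAH (1.25) and THRSP (1.72) in basal-like cells stood at means under 0.1 UMIs per 10000, and the part of free RNA from LP-like cells was not tested. Basal-like cells also came from different clusters, with cluster 5 holding 82.8% of TGFBRi and 9.31% of vehicle cells. Scaling by all UMIs added XDH in basal-like (0.73) and fibroblast-like cells (0.63), OLAH (1.07) and THRSP (1.46) in fibroblast-like cells, and ACACA (1.11) and THRSP (1.17) in endothelium-like cells. In basal sorts OLAH (1.84) and LPL (2.07) were called higher in ACI rats (32.9% of genes called), but at means of 0.0242 and 0.0719 UMIs per 10000 for OLAH and from 50, 2 and 2 against 75, 51 and 24 UMIs per rat for LPL. XDH (−0.91) and ACACA (−0.95) were called lower in SD basal sorts (24.7%), at means of 0.189 and 0.0770 and of 0.111 and 0.0447. With scaling by all UMIs ACACA was also called lower in the ACI basal sort (−0.46).

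**Figure D5:**
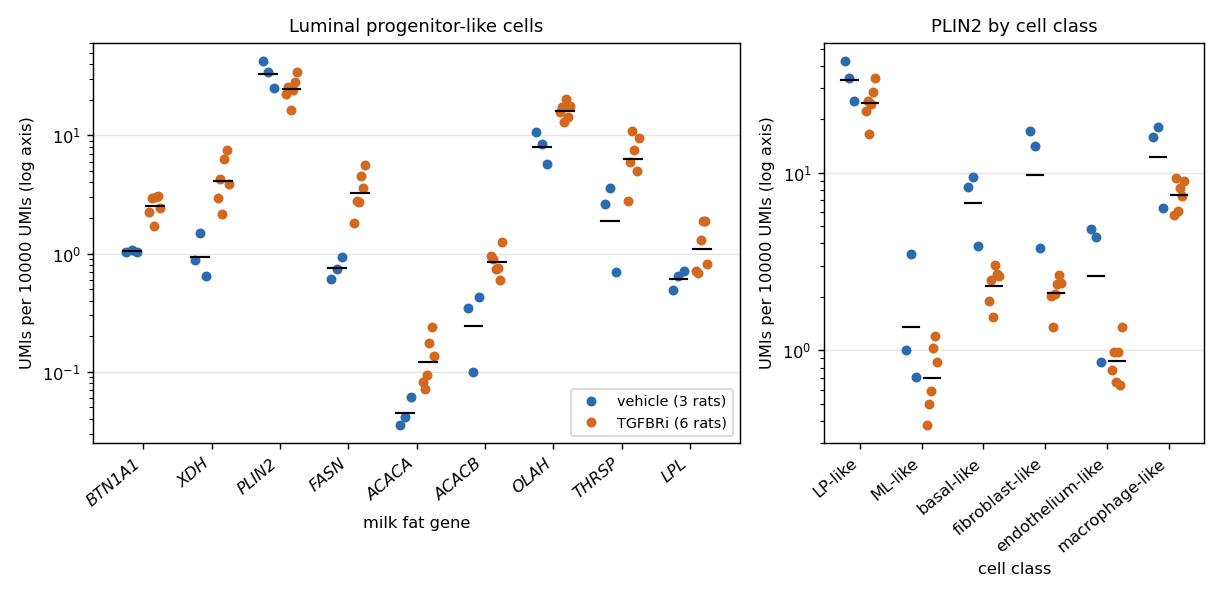
UMIs per 10000 per rat on log axes in whole SD glands, with 9 members in LP-like cells on the left and PLIN2 in 6 classes on the right, for 3 vehicle (blue) and 6 TGFBRi rats (orange), with bars at geometric means. BTN1A1, XDH and FASN in LP-like cells separate without overlap with TGFBRi higher, and PLIN2 in fibroblast-like cells separates with TGFBRi lower. The share of all genes without overlap was not counted.

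Across all 68 rats with luminal bulk cells, the genes whose levels most resembled BTN1A1 were ranked by Pearson r after centring on each data set. PC, pyruvate carboxylase, came first of 10120 genes (r = 0.902) and XDH second (r = 0.901), followed by SULF2 (0.889), PSAP (0.881) and FAM20C (0.878). The remaining members came lower, ACACB 129th (0.75), FASN 164th (0.74), LPL 171st (0.74), OLAH 1263rd (0.55) and PLIN2 2040th (0.46), and SCD had an r of 0.26. These values describe samples that share libraries, treatments and cell makeup, and were not tested.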

How the data were processed

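Bulk RNA-seq was measured in sorted basal, luminal and CD45+ cells and in tumor cells, and single-cell RNA-seq in sorted epithelium and whole glands. The 10 members and the gene lists were chosen with earlier results of these data known. The authors aligned bulk reads with STAR 2.5.1b to rn6, counted them with HTSeq and deposited signal values, that is, counts divided by a DESeq2 1.30.1 size factor per sample. All 2526805 values above 0 were multiples of 1 step per sample, at a tolerance of 0.001, and were divided by it to recover reads. The authors deposited single-cell UMI counts per gene and cell from Cell Ranger 4.0.0, or 7.0.0 for whole glands, after filtering cells on genes and mitochondrial reads and, in sorted cells but not whole glands, removing those with a Ptprc read or fewer than 2 keratin reads. Sorted cells were prepared with 3′ and whole glands with 5′ kits.

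Groups of a fraction and data set were fitted together with limma 3.58.1 (trended, robust) on log2(value + 1), over genes summing to at least 10, with Benjamini-Hochberg adjusted p over all genes and a threshold of 0.05. The design had named a count test, and limma took its place because the deposited values are normalized. edgeR 4.0.16 and DESeq2 1.42.0 on recovered reads were alternatives, beside another pseudocount, other filters, fits of only the groups compared, and each rat left out. The 4 parts of 1 rat were averaged. UMIs summed per rat and class (at least 10 cells, 10 counts) were scaled with TMM, or by all UMIs as an alternative added after the data were seen, and tested by edgeR's quasi-likelihood test at adjusted p of 0.1. Differences are log2 with standard errors (SE). Cells were clustered with scanpy 1.11.5 and Leiden (2000 variable genes without the members, pathway and milk protein genes, 30 components, 20 neighbours, resolution 0.8). A cluster was named when it held at least 3 of a class's markers and a large enough part of its list. Clusters with markers of another class or led by its genes, or with few UMIs and no leading marker, stayed unnamed or luminal mixed. Unnamed cells made up 0.656% of sorted ACI, 19.9% of sorted SD and 9.98% of whole-gland cells. No doublet caller was run, so doublets may remain. Methods were tested on simulated data. Basal and luminal samples of a rat share the animal (correlation of their deviations 0.0245 to 0.198 in ACI and 0.0691 to 0.152 in SD bulk cells, 0.176 to 0.192 and −0.0114 to 0.0718 in sorted single cells). The labels do not say whether samples came from separate litters, so p-values measure the spread between these samples. Reads that fell on no gene, up to 42.5% of a sample, stayed out of totals. The labels of 1 CD45+ sample gave day 9 in its title and day 7 elsewhere (taken as day 7), and 2 day 7 control samples of 1 rat were called treated in 1 field only (taken as controls). SE and s.d. come from the spread between these samples, and shares of cells carry no measure of it. Genes named beside the members were up to 5 per direction of the pathway lists, those called with the largest change and no overlap.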

Additional observations from a re-analysis of the deposited data

Results flagged for a closer look

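The 10 members were looked at in 17 groups of 4 to 6 rats, 170 combinations in all. Groups of CD45+ cells were not among them. Of the 170 combinations, 24 held a rat whose gap to its nearest neighbour was large for the range of the group (Dixon's ratio at the 95% level). Chance flags about 1 in 20 such tests where values spread normally. The values here were not log-transformed and the members of a sample are not independent, so that rate is no measure for these flags. The 24 came from 9 samples. The largest cluster belonged to basal cells of adult virgin vehicle rat 1, where 8 members met this ratio. It stood at 2706 normalized reads for BTN1A1 (others 228 to 435), 6909 for XDH (766 to 1559), 77079 for PLIN2 (9311 to 13297), 11292 for FASN (1531 to 1676), 1059 for ACACB (74.2 to 160), 23517 for OLAH (1855 to 3252), 4425 for THRSP (966 to 1495) and 8315 for LPL (1359 to 2153). Its luminal marker sum was 8358 CPM against 3668 to 3949 in the other rats, its adipocyte marker sum 612 against 50.2 to 73.9 and its milk protein sum 4703 against 525 to 745. Basal cells of adult parous vehicle rat 2 were highest for BTN1A1 at 535 (100.6 to 122), OLAH at 4665 (824 to 1369) and PLIN2 at 19531 (8511 to 10301).

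Luminal cells of vehicle rat 4 without E2 met the ratio for 4 members as the highest rat, at 8825 for BTN1A1 (others 1662 to 2167), 18302 for XDH (2852 to 5294), 8734 for ACACB (585 to 1221) and 53716 for THRSP (4409 to 9494). Its milk protein sum was 98855 CPM against 8110 to 30748 in its group. The part of cell makeup in these values was not tested.

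Single flags were spread over other groups. Luminal cells of adult parous TGFBRi rat 4 were highest for FASN at 46254 (28298 to 29833), SCD at 689 (65.8 to 142) and XDH at 24962 (10685 to 12466), and those of adult virgin TGFBRi rat 4 for SCD at 1207 (99.6 to 257). Luminal cells of adult virgin vehicle rat 1 were lowest for THRSP at 11284 (24895 to 27607). Young SD vehicle rats gave SCD at 51.4 in luminal rat 1 (14.8 to 19.4) and a low THRSP at 130 in basal rat 2 (172 to 178). In LP-like cells of sorted SD TGFBRi rat 12, LPL was 2.01 (1.09 to 1.32) and SCD 0.0499 UMIs per 10000 (0 to 0.0112).

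The effect of TGFBRi in LP-like cells differed between whole glands and the luminal sort of SD rats for 5 members, by 2.05 for BTN1A1, 1.74 for XDH, 1.33 for FASN, 2.14 for ACACA and 1.93 for ACACB on the log2 scale, in an edgeR model with the experiment as a term. That model was added after the values were seen, and 28.3% of genes were called in it. The sort, library chemistry, cell filters and rats cannot be told apart there.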

How the results depend on the processing

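Lineage differences held best, with 16 of 20 members called in bulk cells, 18 when only the groups compared were fitted and 15 to 16 without 1 rat. With the rat as a replicate block, 18 were called in bulk and 17 in sorted single cells, the added bulk calls being ACACA and SCD in SD rats, and no other call changed with the pairing in bulk cells. TGFBRi calls in bulk cells (5 of 319) became 3 with 5 added, 3 with a mean of at least 10, 3 with no filter, 4 with edgeR, 7 with only the groups compared and 15 with DESeq2, and ran from 4 to 15 without 1 rat, the 15 being reached without NMU luminal tumor-bearing vehicle rat 3. Differences of effect (0 of 90) became 1 with a mean of at least 10, 1 with only the groups compared, 6 with DESeq2 and 0 to 1 without 1 rat. E2 calls (3 of 40) became 1 with edgeR, 8 with DESeq2 and 6 with only the groups compared, and ran from 1 to 7 without 1 rat. The shares of all genes called in these 3 alternatives are not given here, so their member counts cannot be set against them. The E2 calls were 7 without vehicle rat 4 without E2, 6 without tumor-free TGFBRi rat 6 with E2, and 1 without tumor-free TGFBRi rat 1, 5 or 7 with E2 or without TGFBRi rat 2 without E2. The cause of these changes was not tested. Parity gave 0 in each setting. Single-cell calls of TGFBRi (50 of 139) ran from 46 to 58 over the alternatives, the 58 with scaling by all UMIs, and from 41 to 53 without 1 rat. LPL in LP-like cells of sorted ACI rats, not called at 0.08, was called lower (−0.28) with scaling by all UMIs, and no other value changed its direction with a call.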
